A study of Homo sapiens with 6 samples.

Results

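The protein subunits of mitochondrial complexes I to V were followed at the transcript level in KM12 cells with and without overexpressed CDO1. The set was every protein-coding gene of the deposited table whose symbol marks it as a subunit of complex I (NDUFA, NDUFB, NDUFC, NDUFS or NDUFV, not the NDUFAF assembly factors), II (SDHA to SDHD), III (UQCR), IV (COX4 to COX8) or V (ATP5), or as a messenger RNA of the mitochondrial genome (MT-), with a mean of at least 20 normalised counts over the 6 libraries. This left 89 of the 27134 genes, 77 encoded in the nucleus and 12 in mitochondrial DNA. By complex they numbered 41, 4, 10, 15 and 19 for I to V, with NDUFA4 counted in complex IV, of which its product is a subunit. COX7A2L, a supercomplex assembly factor, and ATP5IF1, the inhibitor of the ATP synthase, are in the set by their symbols, while CYC1, the cytochrome c1 of complex III, is not and is given separately.

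KM12 is an established line of human colorectal cancer cells. The study has 1 comparison, of 3 libraries labelled as overexpressing CDO1 with 3 mock control libraries, all from cells at passages 10 to 15. The product of CDO1, a cysteine dioxygenase, adds oxygen to the sulfur of cysteine and so starts its breakdown. The sources used here give neither the vector and selection nor whether a group is 1 clone. They also do not say that replicates were grown separately, so that p-values cover the spread among libraries only, and this may be technical.

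Complexes I to IV pass electrons from NADH and succinate to oxygen and complexes I, III and IV pump protons, and complex V, the ATP synthase, uses the proton gradient to make ATP. Complexes I, III, IV and V are built from the products of both genomes, and complex II from nuclear genes only. The mitochondrial genome is transcribed as long precursors that are cut into mRNAs, tRNAs and rRNAs. Colorectal epithelium relies on mitochondrial oxidation of short-chain fatty acids, and colorectal cancer cells keep a working respiratory chain beside high glycolysis.

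Promoter sequences are shown for nuclear members because nuclear respiratory factor 1 (NRF1) and GABP are known regulators of these genes. The 250 bases before the RefSeq start (GRCh38.p14, 5′ to 3′ on the gene's strand), which can differ from the GENCODE start of the gene, are given for SDHA, SDHD and NDUFA3, the members that rose and held an NRF1 match, and for COX6A1, the called member with the largest rise. Capitals mark matches on either strand to the NRF1 motif (GCGCA, any base, GCGC) or the GABP motif CCGGAAG.
SDHA, chr5:218070-218319, strand +: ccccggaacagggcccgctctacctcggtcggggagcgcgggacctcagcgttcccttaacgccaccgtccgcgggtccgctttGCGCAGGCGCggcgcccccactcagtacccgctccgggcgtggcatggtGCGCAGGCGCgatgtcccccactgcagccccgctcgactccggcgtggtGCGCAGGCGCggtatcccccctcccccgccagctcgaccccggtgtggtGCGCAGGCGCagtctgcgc
SDHD, chr11:112086623-112086872, strand +: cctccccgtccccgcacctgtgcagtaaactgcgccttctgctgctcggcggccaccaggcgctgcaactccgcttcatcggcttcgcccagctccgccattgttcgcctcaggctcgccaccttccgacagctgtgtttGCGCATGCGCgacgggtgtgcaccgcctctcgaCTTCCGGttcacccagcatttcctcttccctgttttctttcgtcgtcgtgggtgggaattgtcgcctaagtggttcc
NDUFA3, chr19:54102605-54102854, strand +: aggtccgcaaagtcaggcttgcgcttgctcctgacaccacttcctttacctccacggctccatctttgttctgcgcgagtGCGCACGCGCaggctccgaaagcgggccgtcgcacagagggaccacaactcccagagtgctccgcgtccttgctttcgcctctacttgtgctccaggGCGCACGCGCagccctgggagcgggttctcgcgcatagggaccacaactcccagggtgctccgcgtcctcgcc
COX6A1, chr12:120437863-120438112, strand +: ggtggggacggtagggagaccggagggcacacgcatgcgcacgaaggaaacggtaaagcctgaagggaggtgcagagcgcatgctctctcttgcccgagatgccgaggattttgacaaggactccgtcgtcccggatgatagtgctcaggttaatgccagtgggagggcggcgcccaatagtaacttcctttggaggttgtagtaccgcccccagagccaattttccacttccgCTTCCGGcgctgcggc
SDHA held 4 NRF1 matches, NDUFA3 2, and SDHD 1 NRF1 and 1 GABP match, while COX6A1 held 1 GABP match. In the window from 250 bases before to 50 after the start, 63 members had a RefSeq promoter. Of these, 16 (25.4%) held the NRF1 motif, against 9.67% of 15843 protein-coding genes. Those 15843 genes were taken without the minimum mean set for the members, so the groups compared also differ in expression. The GABP motif was in 21 (33.3%) against 16.5%, the YY1 motif AAGATGGC in 10 (15.9%) against 4.66%, and the ERR motif TCAAGGTCA in 1 (1.59%) against 0.335%, each on both strands. Of the 13 members with a promoter that rose, 3 held the NRF1 motif and 5 the GABP motif. Only 1 member that fell had a promoter, and it held neither. Whether the motifs go with the direction of change was not tested. A match is a run of letters and was not tested as a binding site.

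The libraries held 17516640 to 22198173 reads assigned to genes. CDO1 itself stood at 68.1 normalised counts in mock replicate 1 (76 reads), at 0 in the other mock replicates, with 3 reads as the limit a 0 allows, and at 2483.91, 2336.28 and 2332.78 in CDO1 replicates 1 to 3, a ratio of means of 105. Its adjusted p was 2.74e-07 in limma. With 2 mock libraries at 0 the fitted log2 change depends on pseudocount and tool. It was 9.18 in limma with a pseudocount of 1, 7.61 with a pseudocount of 5, 6.57 in edgeR, 6.71 in DESeq2 and 11.2 in limma without mock replicate 1. Of 10 markers of colorectal epithelium 9 had a mean of at least 20, and their summed level was 117593 to 122223 in mock and 167898 to 179393 with CDO1. Summed leukocyte markers (5 of 8 measured, none with a mean of 20) were at 17.0 to 26.9 in mock and 7.35 to 15.3 with CDO1, fibroblast markers (3 of 8 measured) at 204 to 294 and 130.4 to 151.9, and endothelial markers (6 of 6 measured) at 63.4 to 173.9 and 127 to 141. The part of these levels in the results on the respiratory chain was not tested.

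Most subunit transcripts did not pass the test. Of the 89, 15 were higher and 5 lower with CDO1 at an adjusted p of 0.05 in limma, and 69 did not pass. In bulk RNA, fewer cells with a transcript and less of it per cell cannot be told apart. The called share, 22.5%, lies beside 24.0% of the 21775 genes tested and 36.9% of the 12250 protein-coding genes with the same minimum mean. The changes were small. The median absolute log2 fold change was 0.12 for the 89 and 0.16 for protein-coding genes with that minimum mean, no subunit reached 1, and 5.65% of those protein-coding genes did. The range over subunits ran from -0.40 for NDUFS5 to 0.55 for ATP5ME, which did not pass (adjusted p = 0.139 in limma). The groups did not overlap in 29 subunits, 23 higher and 6 lower, against 50.3% of protein-coding genes with that mean (25.8% higher, 24.5% lower) and 37.1% of all genes tested. All 29 are nuclear genes.

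**Figure D1:**
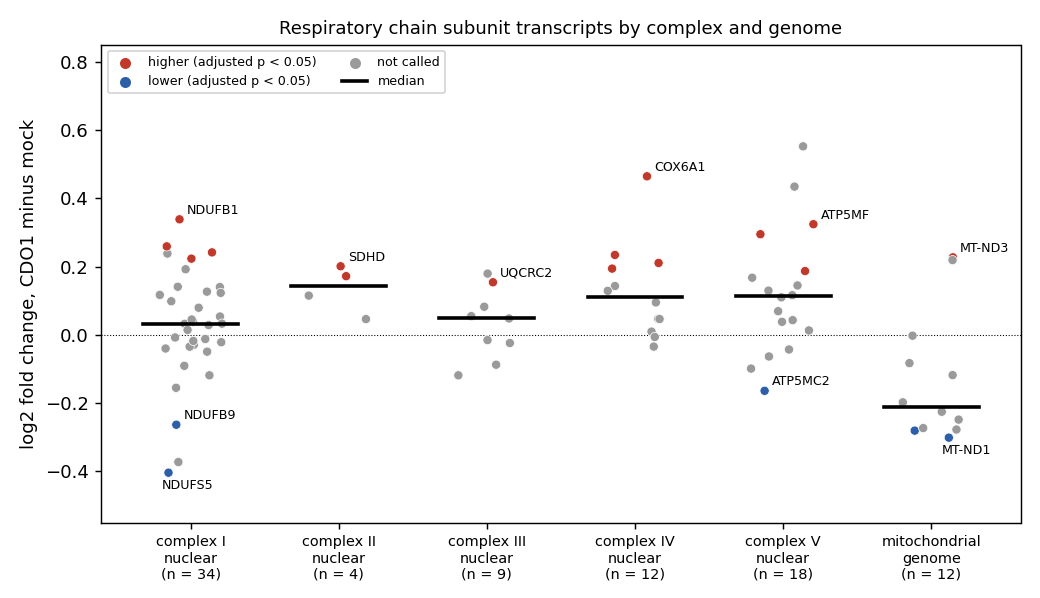
Difference between CDO1 and mock in the mean log2(normalised count + 1) of each subunit, in columns for the nuclear subunits of complexes I to V and for the 12 mRNAs of the mitochondrial genome. Red and blue points passed an adjusted p of 0.05, grey points did not, and black bars are medians, at 0.03, 0.14, 0.05, 0.11 and 0.11 for complexes I to V and -0.21 for the mitochondrial genome.

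The genomes differed in the sign of their medians. Over the 77 nuclear subunits the median log2 fold change was 0.05, with 53 above 0, 14 higher and 3 lower by the test. Over the 12 mitochondrial mRNAs it was -0.21, with 2 above 0, 1 higher and 2 lower by the test. Among all genes tested the median was -0.0035. Among protein-coding genes with a mean of at least 20 it was 0.0096, with 6328 of 12250 above 0, 18.1% higher and 18.8% lower by the test. Per library, the median log2 level of the nuclear subunits relative to the mock mean was -0.01, -0.05 and 0.06 in mock replicates 1 to 3. It was 0.08, 0.11 and 0.05 in CDO1 replicates 1 to 3, so the groups overlapped. The median of the mitochondrial mRNAs was -0.05 without CDO1 replicate 2, so that its size rests on that library. No p is given for the medians, since members of a set are not replicates. The summed normalised counts of the nuclear subunits stood, with CDO1 against mock, in ratios of 1.01, 1.03, 1.05 and 1.06 for complexes I, III, IV and V, and those of complex II are given with its genes. The sums of complexes I, III and IV overlapped between the groups. Those of complex V did not, at 68804 to 73761 in mock and 75204 to 75929 with CDO1.

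Complex I, the NADH dehydrogenase, had 34 nuclear members, of which 4 rose, 2 fell and 28 did not pass. The largest fall of the whole set was NDUFS5 (ENSG00000168653, chromosome 1, 39026318 to 39034636), an accessory subunit of the membrane arm. Its normalised counts were 3093, 3343 and 3320.3 in mock replicates 1 to 3 and 2332, 2610.0 and 2437 in CDO1 replicates 1 to 3. Every CDO1 library lay below every mock library, 1.32-fold lower on average, with a log2 fold change of -0.40 ± 0.056 (SE) and an adjusted p of 1.52e-05 in limma. NDUFS5 was also the nuclear complex I member with the highest level per length, a mean of 5211 normalised counts per kb of transcript.

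NDUFB9, another accessory subunit of the membrane arm (ENSG00000147684, chromosome 8, 124539101 to 124580648), stood at 1606, 1612 and 1747 in mock replicates 1 to 3 and 1341, 1501 and 1299.6 in CDO1 replicates 1 to 3. The groups did not overlap, and its level was 1.20-fold lower with CDO1 (log2 fold change -0.26 ± 0.063, SE, adjusted p = 0.00394 in limma). Of the bases of its transcript 26.02% are shared with exons of TATDN1 on the other strand.

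The members that rose, NDUFB1, NDUFB3, NDUFA3 and NDUFA1, are small accessory subunits. NDUFB1 (ENSG00000183648, chromosome 14, 92116122 to 92121917) was at 669, 684 and 779 in mock replicates 1 to 3 and 869.7, 1010.5 and 820.1 in CDO1 replicates 1 to 3. It had the largest rise of the complex, 1.27-fold, with a log2 fold change of 0.34 ± 0.080 (SE) and an adjusted p of 0.00331 in limma. NDUFB3 was at 1046, 972 and 1164 in mock replicates 1 to 3 and 1297, 1382 and 1133 in CDO1 replicates 1 to 3, and here CDO1 replicate 3 lay below mock replicate 3, so the groups overlapped (log2 fold change 0.26, adjusted p = 0.0161). NDUFA3 was at 1109 ± 54.9 in mock and 1313 ± 103 with CDO1 (SD, n = 3) and NDUFA1, on the X chromosome, at 1433 ± 51.8 in mock and 1679 ± 179 with CDO1 (SD, n = 3), with log2 fold changes of 0.24 and 0.22 (adjusted p = 0.00986 and 0.0195) and no overlap of groups. In NDUFA1, 44.5% of the transcript's bases are shared with exons of RNF113A on the other strand.

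None of the 6 nuclear core subunits of complex I measured above the minimum, which carry the flavin, the iron-sulfur clusters and the quinone site, passed the test. Their log2 fold changes ran from -0.04 for NDUFS8 to 0.12 for NDUFS1. NDUFS1, which holds iron-sulfur clusters, was at 2714 ± 120.0 in mock and 2955 ± 65.0 with CDO1 (SD, n = 3, adjusted p = 0.100), and NDUFV1, which binds the flavin, at 4161 ± 66.4 in mock and 4400.0 ± 222 with CDO1 (SD, n = 3, adjusted p = 0.304). NDUFV2, the seventh nuclear core subunit, lay just under the minimum mean, at 18.5 normalised counts. Of the bases of its transcript 82.9% are shared with exons of AP005263.1 on the same strand, so this count is no sure measure of the transcript.

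Complex II, succinate dehydrogenase, links the tricarboxylic acid cycle to the chain. Of its 4 genes SDHA and SDHD rose and SDHB and SDHC did not pass, and all 4 log2 fold changes were above 0. SDHA, the flavoprotein that oxidises succinate (ENSG00000073578, chromosome 5, 218241 to 256700), was at 4718, 4717 and 4542 in mock replicates 1 to 3 and 5138, 5247 and 5362 in CDO1 replicates 1 to 3. All 3 CDO1 libraries were above all mock libraries, 1.13-fold on average, with a log2 fold change of 0.17 ± 0.049 (SE) and an adjusted p of 0.0127 in limma. SDHD, a membrane anchor subunit (ENSG00000204370, chromosome 11, 112086773 to 112120013), was at 1108, 957 and 1088 in mock replicates 1 to 3 and 1257, 1117 and 1248 in CDO1 replicates 1 to 3. CDO1 replicate 2 exceeded the highest mock library only narrowly there (log2 fold change 0.20 ± 0.069, SE, adjusted p = 0.0385 in limma). SDHB, the iron-sulfur subunit, and SDHC, the other anchor, had log2 fold changes of 0.05 and 0.12 (adjusted p = 0.650 and 0.174). The summed level of the 4 was 10078, 9751 and 10314 in mock replicates 1 to 3 and 11158, 10844 and 11152 in CDO1 replicates 1 to 3, which do not overlap.

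In complex III, which passes electrons from ubiquinol to cytochrome c, 1 of 9 nuclear members rose and 8 did not pass. UQCRC2, a core subunit of the matrix side, was at 3926, 3742 and 4151 in mock replicates 1 to 3 and 4222, 4392 and 4531 in CDO1 replicates 1 to 3. The groups did not overlap, yet by little, with a log2 fold change of 0.15 ± 0.053 (SE) and an adjusted p of 0.0406 in limma. The call was lost without any 1 of 5 libraries (all but mock replicate 3), with the GC trend removed and with equal library totals, and UQCRC2 passed in 11 of 19 alternative fits. The iron-sulfur subunit UQCRFS1 was at 2644 ± 126 in mock and 2745 ± 43.1 with CDO1 (SD, n = 3, adjusted p = 0.514). UQCRH, the nuclear member of complex III with the highest level per length, 7137 per kb, was at 4239.6 ± 184 in mock and 4382 ± 107 with CDO1 (SD, n = 3, adjusted p = 0.562), and its near-identical copy UQCRHL at 45.6 and 45.5, so reads of the pair may be exchanged. CYC1 fell, in the opposite direction to UQCRC2, from 9262 ± 896 to 7847 ± 612 (SD, n = 3, log2 fold change -0.24, adjusted p = 0.0111).

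Complex IV, cytochrome c oxidase, had 12 nuclear members, of which COX7A2L, COX6A1, COX5A and COX8A rose and none fell. COX6A1, the non-muscle form of subunit VIa (ENSG00000111775, chromosome 12, 120438090 to 120440742), had the largest called rise of the set. It was at 190.0, 179 and 215 in mock replicates 1 to 3 and 243, 342 and 233 in CDO1 replicates 1 to 3, so that CDO1 replicate 2 stood well above the other libraries and the other CDO1 libraries only a little above mock replicate 3. Its level was 1.40-fold higher, with a log2 fold change of 0.46 ± 0.13 (SE) and an adjusted p of 0.00924 in limma. COX5A was at 2055, 1968 and 2149 in mock replicates 1 to 3 and 2312, 2372 and 2373 in CDO1 replicates 1 to 3, with tight CDO1 libraries and a log2 fold change of 0.19 (adjusted p = 0.0108). COX7A2L (ENSG00000115944, chromosome 2, 42333546 to 42425088) was at 2001, 1973 and 2071 in mock replicates 1 to 3 and 2250.2, 2538 and 2331 in CDO1 replicates 1 to 3, without overlap (log2 fold change 0.23, adjusted p = 0.00411). COX8A overlapped between the groups, with CDO1 replicate 3 at 633 and mock replicate 3 at 634, and passed narrowly (adjusted p = 0.0485).

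COX4I1, the largest nuclear subunit of the oxidase and its nuclear member with the highest level per length (7145 per kb), was at 6217 ± 226 in mock and 6257 ± 155 with CDO1 (SD, n = 3, adjusted p = 0.920). NDUFA4 was at 2245 ± 114 in mock and 2317 ± 45.4 with CDO1 (SD, n = 3, adjusted p = 0.603). Isoforms of restricted tissues stayed under the minimum mean: COX6B2 at 9.67, COX7A1 at 7.99 and COX8C at 0.316 normalised counts over all libraries, and NDUFA4L2 at 17.9 ± 0.774 in mock and 14.1 ± 4.45 with CDO1 (SD, n = 3), none of them called. The other 6 symbols under the minimum were NDUFB8 (19.3), NDUFV2, MT-ATP8 (12.6), NDUFA7 (5.59), the readthrough ATP5MF-PTCD1 (1.03) and ATP5MGL (0.448). NDUFB8 and NDUFA7 share 71.7% and 78.7% of their bases with exons of other genes, so their low counts are no sure measure of their transcripts. Outside the symbols of the set, DMAC2L, a partner of complex V, rose (log2 fold change 0.37, adjusted p = 0.0033). C15orf48, whose product can take the place of NDUFA4, was scarce, at 2.69, 0.975 and 3.39 in mock replicates 1 to 3 and 9.86, 9.85 and 3.67 in CDO1 replicates 1 to 3, and did not pass (adjusted p = 0.0648). NDUFB8 and NDUFV2 lay just outside the limit, and ATP5ME, at 29.2, and UQCRHL, at 45.5, just inside.

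**Figure D2:**
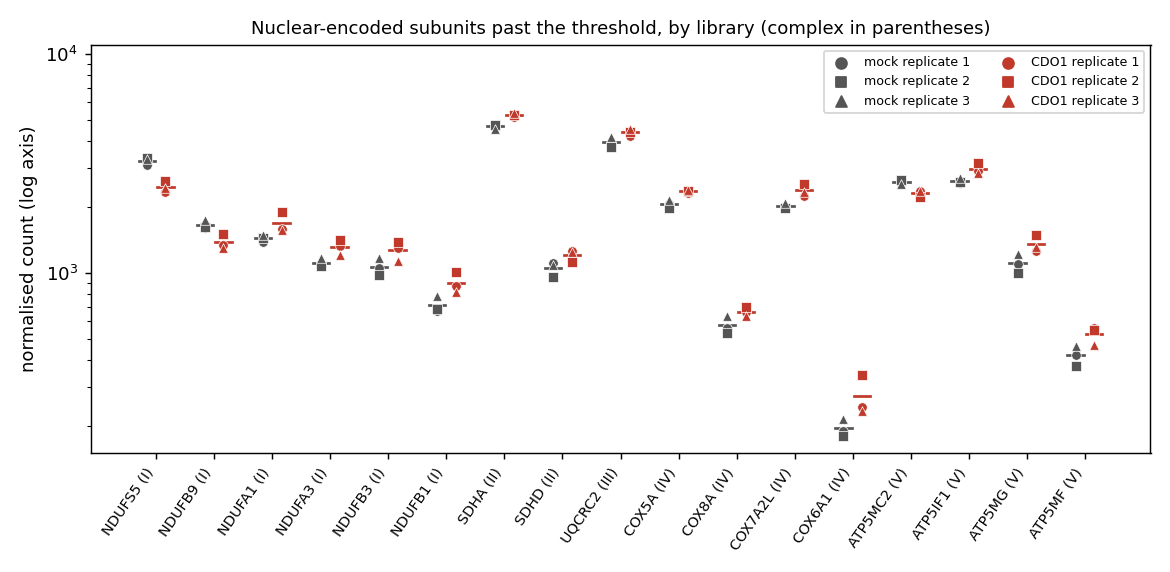
Normalised count on a log axis of the 17 nuclear subunits past the threshold, where mock libraries are grey, CDO1 libraries red, the 3 replicates differ in shape and lines are group means. NDUFS5, NDUFB9 and ATP5MC2 are lower with CDO1, and the groups overlap only in NDUFB3 and COX8A.

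Of 18 nuclear members of complex V, 3 rose, 1 fell and 14 did not pass. ATP5MG and ATP5MF, small subunits of the membrane part, rose 1.23-fold and 1.25-fold. ATP5MG was at 1097, 993 and 1219.5 in mock replicates 1 to 3 and 1259, 1482 and 1314 in CDO1 replicates 1 to 3 and ATP5MF at 419, 376 and 460.4 in mock replicates 1 to 3 and 557, 548 and 467 in CDO1 replicates 1 to 3, in both without overlap (log2 fold changes 0.29 and 0.32, adjusted p = 0.00607 and 0.00972). Of the ATP5MF transcript, 46.2% lies in exons shared with PTCD1 and the readthrough of both. ATP5IF1, which inhibits ATP hydrolysis by the enzyme, was at 2621 ± 63.2 in mock and 2987 ± 174 with CDO1 (SD, n = 3), 1.14-fold higher (log2 fold change 0.19, adjusted p = 0.0157).

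The c ring of the ATP synthase is made from 3 genes whose mature proteins are identical. ATP5MC2 (ENSG00000135390, chromosome 12, 53632726 to 53677408) was at 2562, 2659.6 and 2533 in mock replicates 1 to 3 and 2369, 2207 and 2348 in CDO1 replicates 1 to 3. It fell without overlap of groups, with a log2 fold change of -0.16 ± 0.053 (SE) and an adjusted p of 0.0284 in limma. The call was lost without any 1 of 5 libraries (adjusted p = 0.0532 to 0.114), and kept without mock replicate 3. ATP5MC1 had a log2 fold change of -0.06 (adjusted p = 0.401) and ATP5MC3 of 0.12 (adjusted p = 0.126), and neither passed. Whether the 3 genes respond differently was not tested. None of the 5 subunits of the catalytic F1 part passed in limma. ATP5F1B, the catalytic beta subunit and the nuclear member with the highest level per length (12477 per kb), was at 22078, 21212 and 22458 in mock replicates 1 to 3 and 23802, 23433 and 24689 in CDO1 replicates 1 to 3, without overlap. Its adjusted p was 0.0675 in limma, 0.0333 in edgeR, 0.0200 in DESeq2 and 0.0217 in the authors' deposited table, so that this call changes with the tool. ATP5F1A, the alpha subunit, had a log2 fold change of 0.11 (adjusted p = 0.131). ATP5PO, which joins F1 to the stalk, had one of 0.43 ± 0.17 (SE, adjusted p = 0.0646) on low counts, 137 ± 38.6 in mock and 182 ± 36.7 with CDO1 (SD, n = 3).

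The 12 mRNAs of the mitochondrial genome took 0.806 to 0.938% of all normalised counts in the mock libraries and 0.683 to 0.953% in the CDO1 libraries, 0.890 ± 0.0727 and 0.806 ± 0.137 (SD, n = 3). In CDO1 replicate 1 the share was 0.953%, the highest of all libraries, and in CDO1 replicate 2 it was 0.683%, the lowest. The median log2 level of the mRNAs relative to the mock mean was 0.08, -0.15 and 0.06 in mock replicates 1 to 3 and 0.10, -0.50 and -0.15 in CDO1 replicates 1 to 3. The CDO1 libraries thus lay on both sides of the mock libraries. Of the 12 mRNAs, 10 had their lowest level of all in CDO1 replicate 2, and for none were the groups apart.

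MT-ND3, a core complex I subunit (ENSG00000198840, mitochondrial genome 10059 to 10404), went the other way. It was at 18211, 17724 and 20812 in mock replicates 1 to 3 and 23618, 22248 and 20503 in CDO1 replicates 1 to 3, 1.17-fold higher on average, with a log2 fold change of 0.23 ± 0.063 (SE) and an adjusted p of 0.0118 in limma. CDO1 replicate 3 lay below mock replicate 3, so the groups overlapped. Relative to the median of the other 11 mRNAs in the same library, its log2 level was 0.38, 0.77 and 0.70 in mock replicates 1 to 3 and 0.79, 1.47 and 1.02 in CDO1 replicates 1 to 3. By level per length MT-ND3 was the highest member of the set, at 59305 per kb, before MT-CO2 (35333), a core subunit of the oxidase. Counts per kb differed widely even between overlapping mitochondrial genes, with MT-ATP8, under the minimum mean, at 61.1 and MT-ATP6 at 16886. The ranking therefore describes counts and is no sure measure of transcript levels. MT-ND4L, which lies after MT-ND3 at 10470 to 10766, stood 0.22 ± 0.11 (SE) higher on the log2 scale and did not pass (adjusted p = 0.148). Its end overlaps MT-ND4 (10760 to 12137), which had a log2 fold change of -0.20. The mRNAs are counted here by gene, so overlapping genes need not stand for separate molecules. The opposite signs of MT-ND4L and MT-ND4 may reflect how reads were counted, which was not tested.

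MT-ND1, a core subunit of the membrane arm at 3307 to 4262, and MT-CYB, the cytochrome b of complex III at 14747 to 15887, passed as lower with overlapping groups. MT-ND1 was at 6862, 5529 and 6057 in mock replicates 1 to 3 and 6109, 4089 and 4920.0 in CDO1 replicates 1 to 3 (log2 fold change -0.30 ± 0.098, SE, adjusted p = 0.0304 in limma). MT-CYB was at 8676, 7064 and 7882 in mock replicates 1 to 3 and 7982, 5274 and 6405 in CDO1 replicates 1 to 3 (log2 fold change -0.28 ± 0.099, SE, adjusted p = 0.0457 in limma). CDO1 replicate 1 was among the mock libraries for both, and without CDO1 replicate 2 no mitochondrial mRNA passed, with log2 fold changes of -0.16 for MT-ND1 and -0.13 for MT-CYB. Without mock replicate 1 none passed either, and in DESeq2 only MT-ND3 did.

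The oxidase subunits MT-CO1, MT-CO2 and MT-CO3 had log2 fold changes of -0.12, -0.28 and -0.23 (adjusted p = 0.282, 0.0616 and 0.117), and MT-ATP6 of the ATP synthase -0.25 (adjusted p = 0.173). MT-ND2, MT-ND4 and MT-ND5 were at -0.0023, -0.20 and -0.08 (adjusted p = 0.991, 0.146 and 0.477). MT-ND6, the only mRNA of the light strand, was at -0.27 (adjusted p = 0.0868). As the strand setting is not given in the sources used here, reads of MT-ND6 and of antisense precursor RNA may not be told apart. Nuclear copies of mitochondrial DNA can also take such reads: MTATP6P1 on chromosome 1 was at 654 ± 89.5 in mock and 589.6 ± 113 with CDO1 (SD, n = 3), and MT-ATP6 at 12393 ± 1838 in mock and 10606 ± 2858 with CDO1 (SD, n = 3). The copies MTND2P28 and MTCO1P12 had higher means with CDO1, by log2 fold changes of 0.17 and 0.44. They stood at 185 and 56.1 in mock and at 211 and 77.1 with CDO1. None of these nuclear copies passed.

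The ribosomal RNAs of the same genome fell, and were lower in every CDO1 library than in every mock library. MT-RNR2, the large rRNA at 1671 to 3229, was at 9394, 9470.1 and 11073 in mock replicates 1 to 3 and 6842, 6142 and 6119 in CDO1 replicates 1 to 3, 1.57-fold lower, with a log2 fold change of -0.65 ± 0.063 (SE) and an adjusted p of 1.58e-07 in limma. MT-RNR1, the small rRNA at 648 to 1601, was at 1560.2, 1568 and 1829 in mock replicates 1 to 3 and 1235, 1087 and 1007 in CDO1 replicates 1 to 3, 1.49-fold lower (log2 fold change -0.58 ± 0.075, SE, adjusted p = 7.19e-06 in limma). Both passed under each of the 18 alternative settings that tested them. The counts of the 2 rRNAs per count of the 12 mRNAs were 0.0588, 0.0685 and 0.0704 in mock replicates 1 to 3 and 0.0422, 0.0522 and 0.0446 in CDO1 replicates 1 to 3, without overlap between groups. How the libraries were depleted of or selected against rRNA is not given in the sources used here, so the rRNA values describe what these libraries captured.

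**Figure D3:**
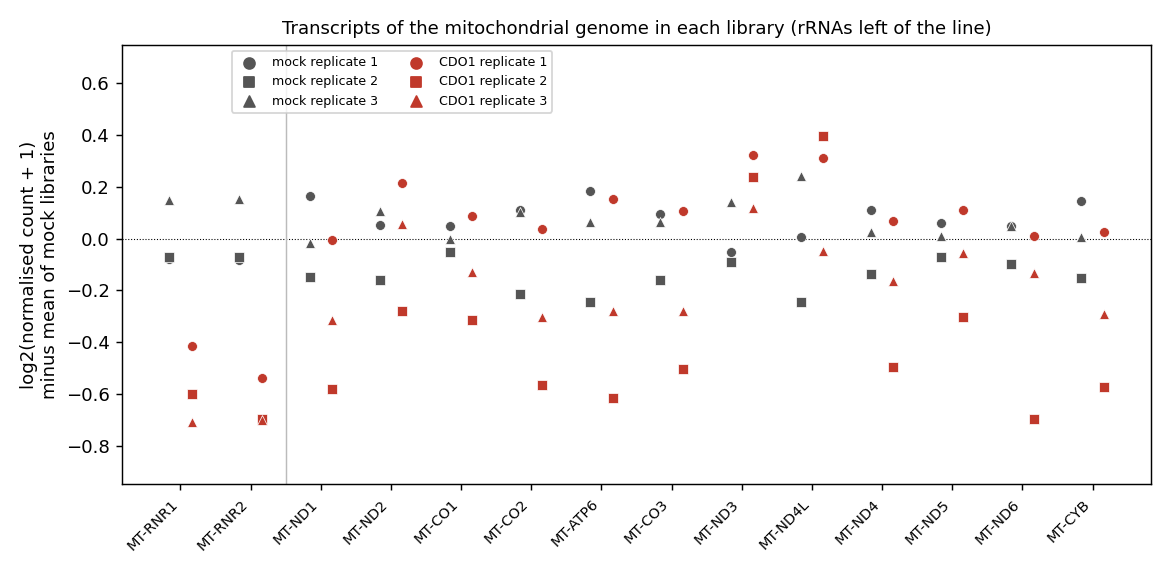
Log2 of the normalised count plus 1 minus the mean of the mock libraries, for the rRNAs (left of the line) and the mRNAs of the mitochondrial genome in the order of their genes, with mock libraries in grey, CDO1 libraries in red and a shape for each replicate. The rRNAs are lower in every CDO1 library, while for the mRNAs CDO1 replicate 1 lies among the mock libraries or above them and replicate 2 is the lowest in 10 of 12.

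Of the tricarboxylic acid cycle list, which includes pyruvate dehydrogenase and pyruvate carboxylase, 10 of 19 rose and none fell, and the median log2 fold change was 0.15. With 1 library left out 4 to 11 rose and none fell, 4 without CDO1 replicate 3, and 5 without CDO1 replicate 1 or mock replicate 1. Of protein-coding genes with a mean of at least 20, 18.1% rose and 18.8% fell, 36.9% in all. Of all genes tested 11.3% rose and 12.7% fell, 24.0% in all. These shares are the background for this list and for each list below. OGDH, the E1 enzyme of the 2-oxoglutarate dehydrogenase complex, was at 3923 ± 149 in mock and 4927 ± 251 with CDO1 (SD, n = 3, log2 fold change 0.33, adjusted p = 9.35e-05), and FH, fumarate hydratase, which takes the product of complex II, at 2101 ± 86.0 in mock and 2670.3 ± 175 with CDO1 (SD, n = 3, log2 fold change 0.34, adjusted p = 0.000149). SUCLA2 and DLD had log2 fold changes of 0.27 and 0.21 (adjusted p = 0.00356 and 0.00466).

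Of 23 genes that carry or feed electrons, 5 rose, 3 fell and 15 did not pass, a called share of 34.8%. The electron transfer flavoprotein subunits ETFA and ETFB and its dehydrogenase ETFDH, which bring electrons from fatty acid oxidation to ubiquinone, rose by log2 fold changes of 0.31, 0.42 and 0.24 (adjusted p = 0.000122, 0.00539 and 0.0461). GPD2, the mitochondrial glycerol-3-phosphate dehydrogenase, fell 1.36-fold, from 1757 ± 102 to 1296 ± 75.4 (SD, n = 3, adjusted p = 1.85e-05). PDSS2, of ubiquinone synthesis, rose by 0.31 on the log2 scale (adjusted p = 0.00308). With mock replicate 1, CDO1 replicate 1 or CDO1 replicate 3 left out 3 rose, and without CDO1 replicate 1, 1 fell.

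Of 18 complex I assembly factors 7 rose and 1 fell, a called share of 44.4%, with a median log2 fold change of 0.10. Without mock replicate 1 only 2 of them rose, and without any 1 CDO1 library 4. NDUFAF3, NDUFAF2 and DMAC1 rose by 0.25, 0.29 and 0.24 (adjusted p = 0.00431, 0.0089 and 0.00975), and NDUFAF8 fell (-0.26, adjusted p = 0.0026). Of the 10 factors for complexes II and III 1 rose (LYRM7), of 24 for complex IV 1 rose (COX18) and 1 fell (SURF1), and of 5 for complex V 1 rose, ATPAF1, at 2125 ± 51.0 in mock and 2654 ± 121 with CDO1 (SD, n = 3, log2 fold change 0.32, adjusted p = 0.000143). For complex IV none fell without mock replicate 2 or CDO1 replicate 2, 3 rose and none fell without mock replicate 3, and none rose without CDO1 replicate 3.

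Of 17 genes for copying and transcribing mitochondrial DNA 1 rose and 3 fell, a called share of 23.5%. None rose without any 1 library other than mock replicate 3, without which 3 rose, and 1 fell without CDO1 replicate 1. MTERF1, a transcription termination factor that binds mitochondrial DNA just after the rRNA genes, had the largest change of any list: it was at 141, 141 and 165 in mock replicates 1 to 3 and 37.5, 44.9 and 44.1 in CDO1 replicates 1 to 3, 3.54-fold lower, with a log2 fold change of -1.80 ± 0.15 (SE) and an adjusted p of 1.65e-08 in limma. The mitochondrial RNA polymerase POLRMT (log2 fold change -0.30, adjusted p = 0.00762, groups overlapping) and the helicase TWNK (-0.22, adjusted p = 0.00789) fell as well, and MTERF4, a partner in mitochondrial ribosome assembly, rose (0.21, adjusted p = 0.0422). TFAM, which packages and activates mitochondrial DNA, was at 1904 ± 56.3 in mock and 2055 ± 22.3 with CDO1 (SD, n = 3) and did not pass (adjusted p = 0.146). Of 18 genes of mitochondrial RNA processing and decay 2 (11.1%) rose, PNPT1, an exoribonuclease (0.38, adjusted p = 2.14e-05), and LRPPRC, which stabilises mitochondrial mRNAs (0.21, adjusted p = 0.0073). In that list 1 rose without CDO1 replicate 1 or 3, and 3 without mock replicate 2.

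Mitochondrial ribosomal proteins gave 12 of 78 that rose and 5 that fell, with a median log2 fold change of 0.04. The called share, 21.8%, lies below the 36.9% of protein-coding genes with a mean of at least 20 and beside the 24.0% of all genes tested. Without mock replicate 1 the counts were 7 and 3, and without CDO1 replicate 3, 10 and 3. MRPS21 fell (-0.52, adjusted p = 5.22e-06), and MRPS6 (0.41, adjusted p = 0.000163), MRPS35 (0.33, adjusted p = 0.000292) and MRPL16 (0.29, adjusted p = 0.000576) rose. Of 11 regulators of mitochondrial biogenesis none rose and 2 (18.2%) fell, the coactivator PPRC1 (-0.25, adjusted p = 0.000883) and the scarce nuclear receptor ESRRB, at 30.5 ± 7.65 in mock and 9.77 ± 2.96 with CDO1 (SD, n = 3, -1.56, adjusted p = 0.00087). NRF1 (-0.09), GABPA (0.0021) and PPARGC1B (0.13) did not pass (adjusted p = 0.406, 0.989 and 0.234). In this list 1 rose without mock replicate 2, and 3 fell without mock replicate 3.

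**Figure D4:**
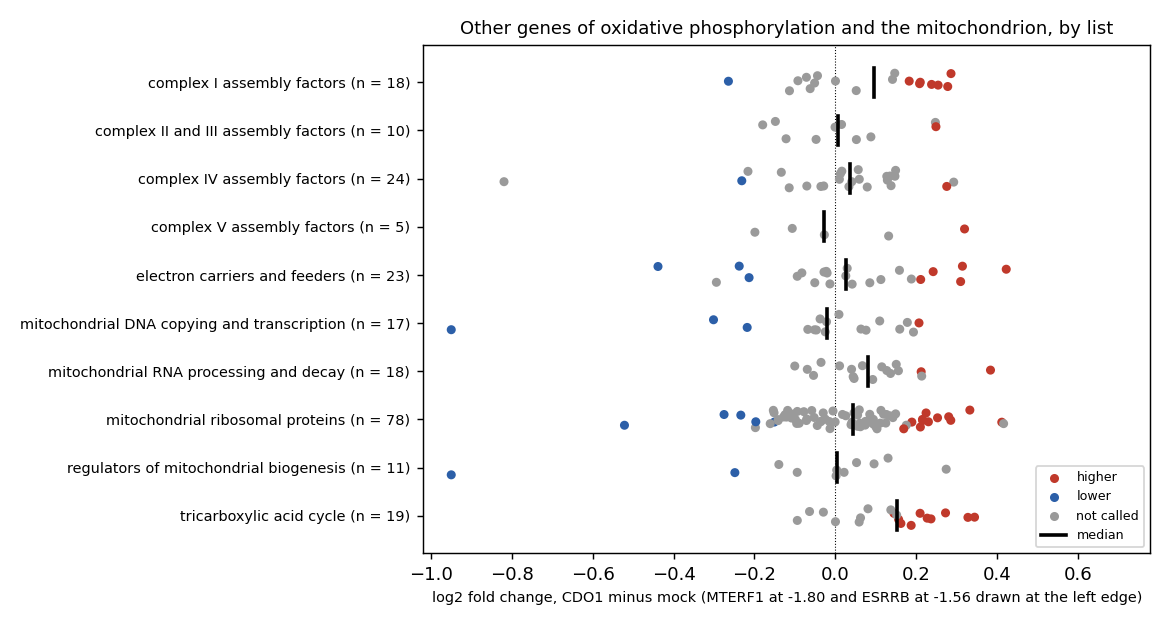
Log2 difference between CDO1 and mock for the genes of 10 lists of mitochondrial function, with the number of genes in parentheses; red and blue points passed an adjusted p of 0.05, grey points did not, and black bars are medians. In the tricarboxylic acid cycle list 10 of 19 genes are higher and none lower, and MTERF1 (-1.80) and ESRRB (-1.56) lie beyond the axis and are drawn at its left edge.

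Levels per length spread widely among the subunits. Normalised counts per kb of the principal transcript ran from 20.02 for NDUFA9, a complex I subunit, to 12477 for ATP5F1B among nuclear members, and from 3858 for MT-ND4L to 59305 for MT-ND3 among mitochondrial ones. Several low members share exons with other genes on either strand in GENCODE 29: 44.1% of the NDUFA13 transcript, 67.0% of NDUFA11, 49.9% of ATP5ME (other strand only) and 70.3% of ATP5PO. The lowest nuclear members, NDUFA9, UQCRHL, NDUFC2 and NDUFS7, share less, at 11.8%, 0%, 19.0% and 37.9%. NDUFA1 and NDUFB11 share 44.5% and 45.8%, yet stood at 2031 and 1228 per kb. The 8 nuclear members with at least 40% of their bases shared had a median of 276 per kb and the other 69 of 1501. Across the 77 nuclear members Spearman's rho between the shared percentage and the level per kb was -0.52, given as a description, since all values come from the same libraries. Between the shared percentage and the log2 fold change rho was 0.30, also a description. The part of exon sharing in the changes was not tested. Among called members COX8A shares 34.5%, COX6A1 30.6%, ATP5MG 26.1%, SDHD 24.0% and NDUFA3, on the other strand only, 16.3%. What the read counter did with such reads is not given in the sources used here, and low counts of these genes are therefore no sure measure of their transcripts.

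**Figure D5:**
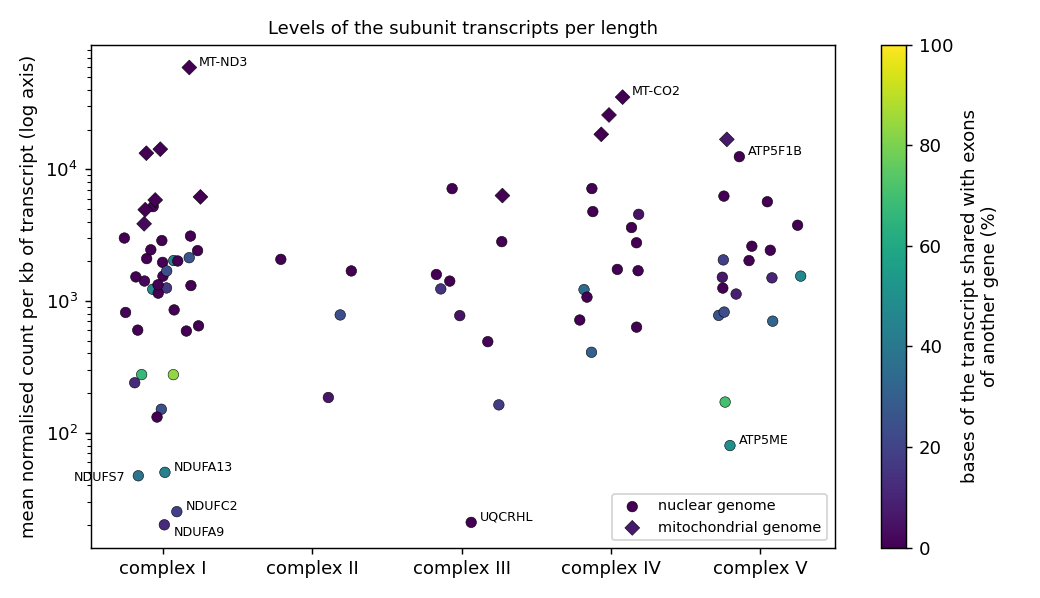
Mean normalised count per kb of the principal transcript (log axis) of each subunit, by complex, with circles for nuclear and diamonds for mitochondrial genes; the colour gives the percentage of the transcript's bases that lie in exons of another gene. MT-ND3, at 59305 per kb, is highest, and NDUFA9, UQCRHL, NDUFC2, NDUFS7, NDUFA13 and ATP5ME are lowest.

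The calls of single subunits differed in how far they rested on 1 library. NDUFS5, NDUFB9, NDUFB1 and COX7A2L passed in all 19 alternative fits. Of the 20 called subunits 15 showed no overlap of groups, all of them among the 17 called nuclear subunits. The 3 called mitochondrial mRNAs overlapped. Overlap and test use the same 6 libraries, and the share without overlap among all called genes was not determined. The count is therefore a description and no separate measure of how firm the calls are. CDO1 replicate 2 had the highest level of all libraries in 9 of the 14 nuclear subunits that rose. Without it 7 of the 20 passed, NDUFS5, NDUFB9, NDUFB1, COX7A2L, SDHA, SDHD and COX5A, and without mock replicate 1, the library with CDO1 reads, 8 passed: NDUFS5, NDUFB9, NDUFB1, COX7A2L, SDHD, COX6A1, ATP5MF and ATP5MG. Other single libraries ended calls too: COX8A did not pass without mock replicate 2, CDO1 replicate 1 or CDO1 replicate 3, and neither did SDHD. SDHA, COX5A, MT-ND1 and MT-CYB did not pass without CDO1 replicate 3, NDUFB3, ATP5MF and MT-ND3 without CDO1 replicate 1, and MT-CYB without mock replicate 3. In edgeR 22 passed, 19 of them among the 20, where 35.7% of the 15184 genes it tested passed. With equal library totals UQCRC2, SDHD and COX8A lost their call. Between the change and the GC content of the transcript, Spearman's rho was -0.04 across the 77 nuclear members, -0.62 across the 12 mitochondrial mRNAs and -0.20 over 13599 genes with a mean of at least 20, given as descriptions over the same libraries. After the trend with GC content was taken out of every library, 36 of the 89 and 9 of the 12 mitochondrial mRNAs passed. Calls also became more frequent over all genes, with 6313 of 21564 against 5229 of 21775 in the main fit.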

How the data were processed

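RNA of KM12 cells was extracted as total RNA and made into Illumina libraries with a NEBNext Ultra kit, per the labels' protocols. STAR 2.5.1b, DESeq2 1.10.1 and the build GRCh38 are named in the submitters' processing notes. For the read counter, annotation and strand setting, these sources give nothing. The deposited signal columns are gene counts divided by a size factor per library (0.884 to 1.12), read from the values: 100% were whole reads within 0.001. The log2 fold change, p-value and adjusted p-value columns are the authors' deposited comparison.

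Values were tested with limma 3.58.1 (trend) in R 4.3.3 on log2(normalised count + 1). The model had a term for the group, took the 21775 genes whose mean reached 1, and used a Benjamini-Hochberg adjusted p of 0.05 as threshold. This scale understates changes of low genes. Fold values are ratios of means. edgeR 4.0.16 and DESeq2 1.42.0 ran on recovered reads as alternatives, and edgeR with TMM scaling called 5423 genes (35.7%). The fits were tested on simulated data. Counting limits cover counting error only.

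Symbols came from a reference name table (26577 of 27134 identifiers), and biotype, position, GC content and principal transcript length from GENCODE 29 (26742), whose release may differ from the authors'. Members, gene lists and the rule for named genes (up to 4 called per direction and complex or per list by p, every mitochondrial mRNA, isoforms, neighbours of the minimum mean) were chosen with earlier results of these data known.

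Alternatives were the filter, pseudocount, threshold, gene set, scaling, removal of a GC trend (lowess, span 0.3), a block for the replicate number, leaving out libraries one by one, other tools, the authors' values and the minimum mean. The pathway lists with a library left out were added after seeing the data. Paralogs and processed pseudogenes of these subunits may exchange reads.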

Additional observations from a re-analysis of the deposited data

How the results depend on the processing

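The number of subunits called was 20 of 89. It was 36 (20 higher, 16 lower) with each library's GC trend removed, 32 with the replicate number as a block, 8 at an adjusted p of 0.01 and 7 to 34 with 1 library left out, 7 without CDO1 replicate 2, 8 without mock replicate 1 and 34 without mock replicate 3. The number of mitochondrial mRNAs called, 3, was 9 with the GC trend removed (1 higher, 8 lower), 8 with the block, 1 in DESeq2, 1 in the authors' deposited table and 0 to 8 with 1 library left out, 0 without mock replicate 1 or CDO1 replicate 2 and 8 without mock replicate 2 or CDO1 replicate 1. The cause was not tested. All genes called were 5229, and 6313 with the GC trend removed, 5918 with the block and 3452 at an adjusted p of 0.01. With 1 library left out, all genes called were 4426 without CDO1 replicate 2, 3887 without mock replicate 1 and 5447 without mock replicate 3. Without mock replicate 2 there were 4891, and without CDO1 replicate 1 there were 3986. For CDO1 the log2 fold change, 9.18, became 7.61 with a pseudocount of 5, 6.57 in edgeR, 6.71 in DESeq2, 8.16 to 11.2 with 1 library left out (11.2 without mock replicate 1) and 0.0892 in the authors' deposited table, where it did not pass.

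Whether the replicate numbers pair the libraries was not settled. Deviations from the group means of same-numbered libraries had a Pearson's r of 0.08, 0.30 and 0.09 for numbers 1 to 3 over 10941 genes. Between libraries of different numbers r ran from -0.24 to 0.19, and not every library correlated best with its own number. A batch shared by replicate number was not tested. The median of the nuclear subunits lay between 0.03 and 0.09 and that of the mitochondrial mRNAs between -0.36 and -0.05 over all settings run. The change in share of mitochondrial mRNAs, -0.0837 percentage points, ran from -0.157 to -0.0218. Depth limits the scarce members, such as ATP5ME at 29.2 normalised counts.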
